A study of Mus musculus with 18 samples.

Results

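Kidneys taken 14 days after folic acid were compared with kidneys of untreated mice, by whole-kidney RNA sequencing. The comparison used the 3 libraries labelled 14 days after treatment and the 3 labelled as untreated, 6 of the 18 libraries in the series, chosen by these labels alone. The day 14 group is kidney of male Balb/c mice weighing 25 to 29 g that were given 1 intraperitoneal injection of 250 mg/kg folic acid in 0.3 M sodium bicarbonate. The untreated group is kidney of Balb/c mice that received nothing, and the protocol gives sex and weight for the injected mice only. The other 12 libraries are kidneys taken 1, 2, 3 and 7 days after the same injection, and day 7 serves below as the nearest earlier time. No group received the bicarbonate alone, and effects of the folic acid and of its vehicle cannot be told apart. The labels give no age. They also leave unsaid whether the libraries of a group are different animals, so every p-value measures spread among samples that may be technical.

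A high dose of folic acid crystallises in the renal tubule and injures its epithelium, above all the proximal tubule, the segment that takes back most of the filtered salt, sugar and amino acids. Part of the epithelium divides and recovers over the following days, while macrophages enter and fibroblasts lay down collagen and other matrix, which makes the model a common one for the passage from acute injury to kidney fibrosis. Injured tubule cells that do not regain their transporters are known to switch on adhesion, chemokine and matrix genes such as Vcam1, Ccl2 and Spp1.

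Reads assigned to genes numbered 22.2, 28.6 and 22.3 M (1e6 reads) in day 14 replicates 1, 2 and 3, against 23.1, 47.3 and 22.2 M in untreated replicates 1, 2 and 3, and all values below follow this order of replicates. Mitochondrially encoded genes held 67.9 to 73.4% of them at day 14 and 69.2 to 75.6% in untreated kidney, so that 6.73 to 7.601 M reads at day 14 and 5.41 to 14.6 M in untreated kidney were left for all other genes. Reads that aligned at more than 1 place came to 21.8, 18.4 and 26.3% of all reads at day 14, against 22.4, 23.2 and 19.4% in untreated kidney. Day 14 replicate 3 stood apart from the other two. Its log2 levels over genes correlated with the untreated mean at r = 0.8815, against 0.9276 and 0.9244 for replicates 1 and 2. With the day 7 mean they correlated at 0.9285, against 0.9334 and 0.9178. This is a description over genes, which are not independent, of libraries that share a protocol and differ in depth. Where the call or the size of a named gene depends on day 14 replicate 3, the value without it is given too.

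At day 14, 260 of 16824 genes tested (1.55%) differed from untreated kidney at an adjusted p under 0.05 by edgeR's quasi-likelihood test, 208 higher (1.24%) and 52 lower (0.309%). Levels are in CPM, a gene’s reads per 1e6 gene reads of its library with TMM scaling, and a fold change is day 14 over untreated on the log2 scale with its standard error (SE). Of the 260, 81 stood in one of the gene lists described below. The lists with most genes called higher were those of matrix (21), injured tubule (15), macrophages (14) and complement (10). The lists and their members were chosen with earlier results of these data known, so counts by list are a description. The groups did not overlap for 254 of the 260, against 3678 of all genes tested (21.9%). Without day 14 replicate 3, 112 of 17682 genes passed (0.633%), 103 higher (0.583%) and 9 lower (0.0509%). Of the 260, 101 were also called in that fit (92 higher and 9 lower), and all 260 kept their direction. Without untreated replicates 1, 2 and 3 in turn, the genes changed at day 14 against untreated numbered 114, 106 and 158, and 65 genes passed in all 6 fits that left out 1 library. With library totals alone in place of TMM the median log2 fold change of all genes moved by 0.32 and the split was 417 higher and 18 lower, so changes are given relative to TMM, whose median over all genes was 0.04.

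**Figure D1:**
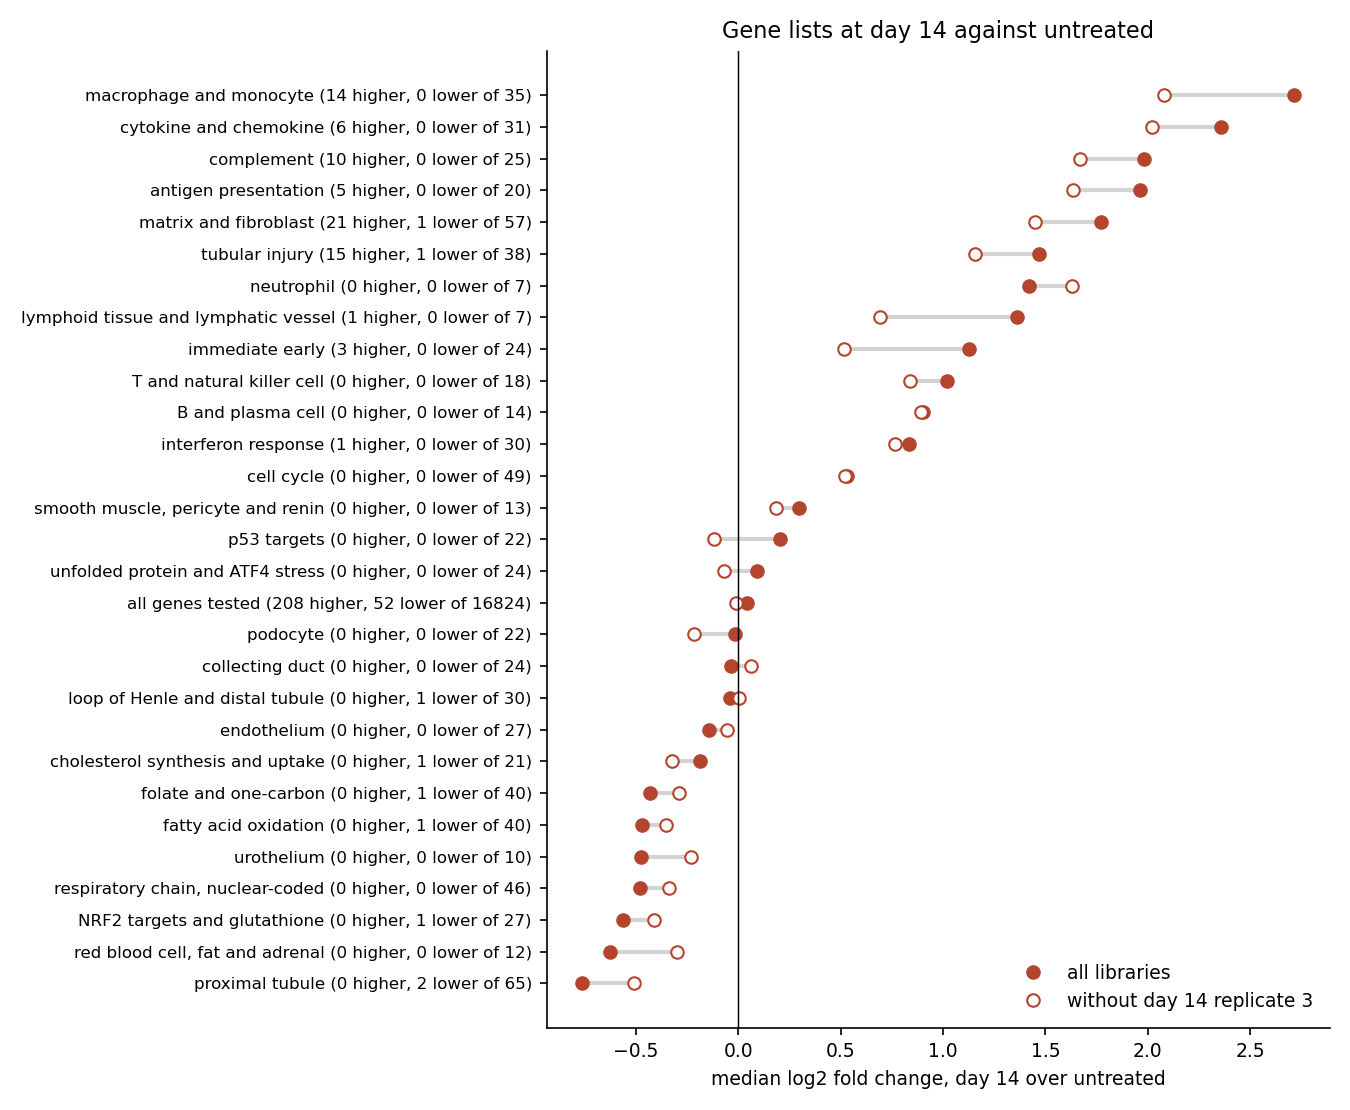
Median log2 fold change (day 14 over untreated, horizontal axis) of the tested members of each gene list, with the numbers called higher and lower beside each name. Filled points use all libraries and open points leave out day 14 replicate 3. The macrophage list has the largest median at 2.71 and the proximal tubule list the lowest at -0.76, and both lie nearer to 0 without that library, at 2.08 and -0.51.

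Genes that mark injured tubule were higher at day 14. Of 38 measured members of the tubular injury list, 15 rose and 1 fell, with a median log2 fold change of 1.47. Without day 14 replicate 3, 11 rose and 1 fell (median 1.15), and without untreated replicates 1, 2 and 3 in turn 13, 11 and 12 rose. Over all genes tested 1.24% were called higher and 0.309% lower, and 0.583 and 0.0509% without day 14 replicate 3. Vcam1 (ENSMUSG00000027962), an adhesion molecule that binds leukocytes, was at 42.5, 56.4 and 77.1 CPM at day 14, against 1.47, 1.55 and 1.75 CPM in untreated kidney. Each day 14 library lay far above each untreated one, and the gene had the lowest adjusted p of all (log2 fold change 5.21 ± 0.47 (SE), adjusted p = 1.83e-05). Cd44, the hyaluronan receptor, was at 24.4, 11.6 and 39.5 CPM at day 14, against 0.544, 0.594 and 0.752 CPM in untreated kidney. It stood near or under 1 CPM in every untreated library and above 10 CPM in every day 14 library (log2 fold change 5.32 ± 0.68 (SE), adjusted p = 0.00036). Lcn2, which encodes the iron-carrier-binding protein NGAL, was at 12.8, 9.002 and 64.97 CPM at day 14, against 0.163, 1.26 and 0.376 CPM in untreated kidney. The groups did not overlap, but replicate 3 held most of the day 14 signal (log2 fold change 5.41 ± 0.91 (SE), adjusted p = 0.00399, with 4.0003 without day 14 replicate 3 and 6.74 without untreated replicate 2, and adjusted p = 0.0601 in a fit on only the 6 libraries). Spp1, the matrix phosphoprotein osteopontin, was among the most abundant of the list, at 766, 526 and 2514 CPM at day 14, against 98.4, 131 and 121 CPM in untreated kidney. All 3 day 14 libraries exceeded all 3 untreated ones (log2 fold change 3.44 ± 0.45 (SE), adjusted p = 0.000451, with 2.47 without day 14 replicate 3). Clu, a secreted chaperone, and Cp, the copper-carrying ferroxidase ceruloplasmin, are named from the same list after their values were seen. Clu was at 95.4, 94.6 and 137 CPM at day 14, against 22.1, 24.3 and 18.4 CPM in untreated kidney (log2 fold change 2.33 ± 0.301 (SE), adjusted p = 0.000423). Cp was at 60.2, 78.1 and 119 CPM at day 14, against 13.05, 12.8 and 19.6 CPM in untreated kidney (log2 fold change 2.503 ± 0.2999 (SE), adjusted p = 0.000213). Mmp7, a matrix-degrading protease of tubule epithelium, had 98 reads at day 14, against 1 in untreated kidney, at 1.39, 0.973 and 1.71 CPM at day 14, against 0, 0 and 0.0626 CPM in untreated kidney (ratio 104, 95% counting interval 18.2 to 4135, adjusted p = 0.00779). It passed in 4 of the 6 fits that left out 1 library, missing without untreated replicate 1 or 2 (adjusted p 0.0529 and 0.0624), and the ratio was 46.6 (8.17 to 1859) without untreated replicate 2 and at least 27.3 (floor of 3 counts) without untreated replicate 3, which held the 1 untreated read.

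Havcr1, which encodes the phagocytic receptor KIM-1 and marks acute tubular injury, was at 31.96, 25.2 and 42.6 CPM at day 14, against 10.4, 23.3 and 15.5 CPM in untreated kidney. The groups did not overlap, yet the difference did not pass (log2 fold change 1.01 ± 0.32 (SE), adjusted p = 0.115). Itgb6 was the list's member that fell. It encodes an integrin subunit whose dimer activates latent TGF-beta, and it was at 46.5, 46.9 and 44.6 CPM at day 14, against 134, 153 and 146 CPM in untreated kidney. Both groups were tight and well apart (log2 fold change -1.65 ± 0.24 (SE), adjusted p = 0.00105, and adjusted p = 0.00875 without replicate 3). Mki67, a marker of dividing cells, was at 11.1, 7.42 and 13.6 CPM at day 14, against 4.404, 6.11 and 1.57 CPM in untreated kidney and did not pass (log2 fold change 1.39 ± 0.402 (SE), adjusted p = 0.0869), although DESeq2 (adjusted p = 0.0277) and library totals alone (adjusted p = 0.0392) called it higher. None of the 49 measured cell cycle genes was called by edgeR (median log2 fold change 0.53). Of them 14 had an unadjusted p under 0.05, as did 15.6% of all genes tested. DESeq2 called 7 higher and library totals alone 3. Of all 16824 genes tested DESeq2 called 917 in either direction.

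**Figure D2:**
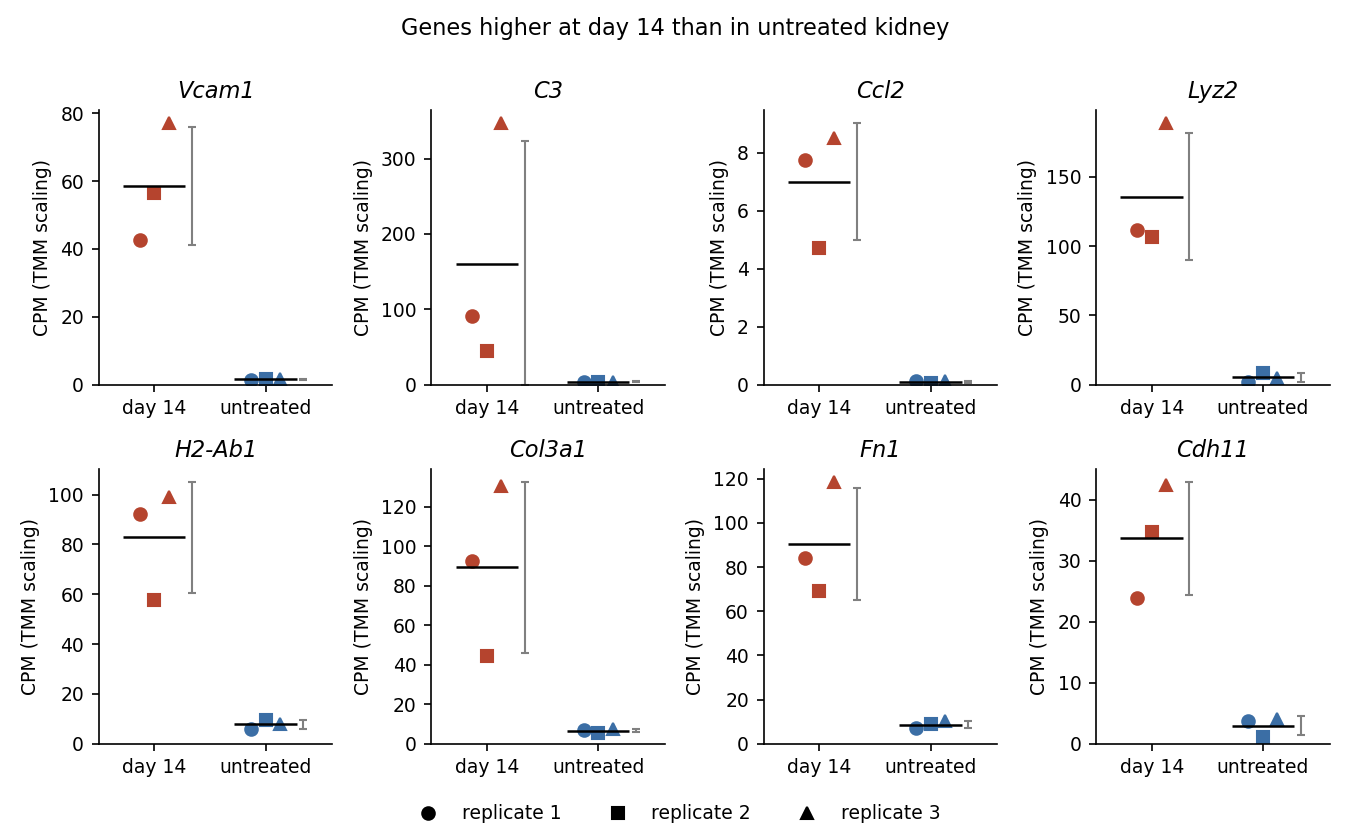
Level in CPM with TMM scaling (vertical axes, each from 0) of 8 genes higher at day 14, for the 3 day 14 libraries (red, left) and the 3 untreated libraries (blue, right). Symbols mark the replicate number, the black line is the mean and the grey bar its SD, with the bar of C3 ending at the axis. Replicate 3 is the highest day 14 library in all 8 panels, and every day 14 point lies above every untreated point.

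Transporter and enzyme genes of the proximal tubule were lower as a group in level, and how many passed depended on the tool. Of 65 measured members, 58 had a negative log2 fold change, with a median of -0.76. Over all genes tested 47.7% were negative. For 42 the day 14 libraries were all below the untreated ones, as for 10.2% of all genes tested. At the adjusted threshold of edgeR 2 fell and none rose. With DESeq2 8 fell, and none did with library totals alone or in a fit on only the 6 libraries. Of the 65, 32 had an unadjusted p under 0.05, as did 15.6% of all genes tested. The median was -0.51 without day 14 replicate 3, and none passed. Summed over the list, the level was 13616, 16517 and 7231 CPM at day 14, against 22425, 20469 and 20599 CPM in untreated kidney. Every day 14 library was below every untreated one, and replicate 3 was under the other two. In whole kidney, fewer cells of a type and less RNA per cell cannot be told apart. Lrp2, which encodes the endocytic receptor megalin, was at 1058, 1258 and 565 CPM at day 14, against 2180.1, 1821 and 1748 CPM in untreated kidney. It lay lower in each day 14 library (log2 fold change -0.997 ± 0.23 (SE), adjusted p = 0.0357) but passed in only 1 of the 6 fits that left out a library: it did not pass without day 14 replicates 1 or 3 or untreated replicates 1, 2 or 3 (adjusted p 0.0578, 0.103, 0.135, 0.0895 and 0.0622). Gatm, the first enzyme of creatine synthesis, was at 288, 265 and 103 CPM at day 14, against 573, 604 and 719 CPM in untreated kidney. Replicate 3 was lowest (log2 fold change -1.53 ± 0.37 (SE), adjusted p = 0.0433). The gene did not pass without day 14 replicates 2 or 3 or untreated replicates 1, 2 or 3 (adjusted p 0.0501, 0.173, 0.094, 0.106 and 0.112). Slc34a1, the main phosphate transporter of the segment, was at 439.7, 526 and 289 CPM at day 14, against 712, 796 and 614 CPM in untreated kidney and did not pass (log2 fold change -0.76 ± 0.27 (SE), adjusted p = 0.162). With library totals alone neither Lrp2 nor Gatm passed (adjusted p 0.102 and 0.0789), and with a fit on only the 6 libraries neither did (adjusted p 0.187 and 0.118).

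No list of another nephron segment held more than 1 gene called by edgeR. Umod, the thick ascending limb's urinary protein uromodulin, was at 1205, 782 and 798 CPM at day 14, against 705, 934 and 967 CPM in untreated kidney. The groups overlapped and the difference was small (log2 fold change 0.096 ± 0.29 (SE), adjusted p = 0.927). Egf, a growth factor made by the distal tubule, was at 214, 242 and 112 CPM at day 14, against 282, 329 and 307 CPM in untreated kidney and was lowest in replicate 3, and the difference did not pass (log2 fold change -0.69 ± 0.41 (SE), adjusted p = 0.444). Of 30 measured loop of Henle and distal tubule genes 1 fell, Cldn10, a claudin that forms paracellular ion pores, at 34.3, 37.1 and 21.6 CPM at day 14, against 87.6, 91.9 and 80.8 CPM in untreated kidney. The groups did not overlap (log2 fold change -1.49 ± 0.3001 (SE), adjusted p = 0.0143), but it did not pass without day 14 replicate 3 or untreated replicates 1 or 2 (adjusted p 0.0914, 0.0549 and 0.0616), and it did not pass with library totals alone (adjusted p = 0.0683) or in a fit on only the 6 libraries (adjusted p = 0.0527). By edgeR no gene was called among 24 measured collecting duct, 22 podocyte, 27 endothelial and 13 smooth muscle, pericyte and renin genes, whose medians lay between -0.14 and 0.29, closer to 0 than the shift between scalings. At an unadjusted p under 0.05 these lists held 2, 8, 1 and 1 genes, and DESeq2 called 1, 4, 0 and 1. Over all 16824 genes tested, 15.6% had such a p and DESeq2 called 917. The summed podocyte level was 491, 468 and 503 CPM at day 14, against 638, 649 and 742 CPM in untreated kidney. The summed smooth muscle, pericyte and renin level was 154, 139 and 152 CPM at day 14, against 107, 107 and 121 CPM in untreated kidney. Neither overlapped, while the sums of the collecting duct and endothelial lists did.

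Matrix genes were the largest called group. Of 57 measured members of the matrix and fibroblast list, 21 rose and 1 fell (median log2 fold change 1.77). In the fit without day 14 replicate 3, 12 rose and none fell (median 1.45). Leaving out untreated replicates 1, 2 and 3 in turn, 13, 12 and 14 rose. The shares of all genes tested were 1.24% higher and 0.309% lower, and 0.583 and 0.0509% without day 14 replicate 3. Col3a1, a fibrillar collagen chain, was at 92.8, 44.5 and 131 CPM at day 14, against 6.74, 5.66 and 7.45 CPM in untreated kidney. The lowest day 14 library was several times the highest untreated one (log2 fold change 3.76 ± 0.43 (SE), adjusted p = 0.000148). Col1a1, the main chain of type I collagen, was at 35.1, 23.03 and 95.8 CPM at day 14, against 3.21, 3.66 and 1.06 CPM in untreated kidney. Replicate 3 was highest (log2 fold change 4.25 ± 0.66 (SE), adjusted p = 0.002, with 3.43 without day 14 replicate 3). Fn1, the matrix glycoprotein fibronectin, was at 83.96, 69.1 and 119 CPM at day 14, against 7.07, 8.77 and 10.2 CPM in untreated kidney. The 3 day 14 libraries were close together (log2 fold change 3.38 ± 0.37 (SE), adjusted p = 0.000118). Col12a1, a collagen that associates with fibrils, was at 37.3, 16.02 and 94.4 CPM at day 14, against 2.01, 2.04 and 3.63 CPM in untreated kidney (log2 fold change 4.28 ± 0.74 (SE), adjusted p = 0.00484, with 3.39 without day 14 replicate 3). Tnc, the glycoprotein tenascin C, was at 10.8, 3.12 and 29.7 CPM at day 14, against 0.924, 0.428 and 0.9395 CPM in untreated kidney. Its day 14 libraries spread widely (log2 fold change 4.29 ± 0.76 (SE), adjusted p = 0.00532, with 3.22 without day 14 replicate 3). The difference missed the threshold without untreated replicate 2 (adjusted p = 0.0521). Timp1, an inhibitor of matrix metalloproteinases that is also in the injury list, had 196 reads at day 14, against 1 in untreated kidney, at 0.867, 1.18 and 5.99 CPM at day 14, against 0.0544, 0 and 0 CPM in untreated kidney (ratio 207, 95% counting interval 36.8 to 8228, adjusted p = 0.00313). It passed in all 6 fits that left out 1 library, with a ratio of 78.5 (13.4 to 3162) without day 14 replicate 3, 93.2 (16.5 to 3700) without untreated replicate 2, and at least 52.5 (floor of 3 counts) without untreated replicate 1, which held the 1 untreated read. Neither Tnc nor Timp1 passed in a fit on only the 6 libraries (adjusted p 0.0694 and 0.0623).

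The series names Cdh11 and Mrc1 in its title, and both were higher at day 14. Cdh11 (ENSMUSG00000031673), a cadherin of mesenchymal cells, was at 23.9, 34.6 and 42.3 CPM at day 14, against 3.64, 1.14 and 4.01 CPM in untreated kidney. The groups did not overlap (log2 fold change 3.54 ± 0.66 (SE), adjusted p = 0.00874), and the call stood without day 14 replicate 3 (adjusted p = 0.0357) but not without untreated replicate 2 (adjusted p = 0.0585). At day 7 Cdh11 was at 28.9, 21.2 and 7.04 CPM. Mrc1 (ENSMUSG00000026712), the mannose receptor of macrophages, was at 8.59, 4.501 and 17.6 CPM at day 14, against 1.305, 1.28 and 2.94 CPM in untreated kidney. Replicate 3 was highest (log2 fold change 2.49 ± 0.55 (SE), adjusted p = 0.0266, with 1.84 without day 14 replicate 3). This call ended without day 14 replicate 3 or untreated replicates 1 or 2 (adjusted p 0.171, 0.127 and 0.139). At day 7 Mrc1 was at 16.6, 14.1 and 21.2 CPM. Acta2, the smooth muscle actin of myofibroblasts, was at 2.43, 5.72 and 8.11 CPM at day 14, against 3.59, 2.66 and 1.94 CPM in untreated kidney. The groups overlapped (log2 fold change 0.99 ± 0.75 (SE), adjusted p = 0.58). Timp3 was the matrix list's member that fell. It encodes a matrix-bound inhibitor of metalloproteinases and was at 459.8, 541 and 301 CPM at day 14, against 728, 874 and 751 CPM in untreated kidney (log2 fold change -0.85 ± 0.203 (SE), adjusted p = 0.0386). It passed in 1 of 6 fits that left out 1 library: it did not pass without day 14 replicates 1 or 3 or untreated replicates 1, 2 or 3 (adjusted p 0.0694, 0.149, 0.0839, 0.147 and 0.0803). It also missed with library totals alone (adjusted p = 0.175). A fit on only the 6 libraries called neither Mrc1 nor Timp3 (adjusted p 0.115 and 0.179). Its relative Timp2, named after its values were seen, rose, at 35.4, 25.7 and 65.9 CPM at day 14, against 11.5, 12.9 and 13.2 CPM in untreated kidney (log2 fold change 1.75 ± 0.31 (SE), adjusted p = 0.00534).

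**Figure D3:**
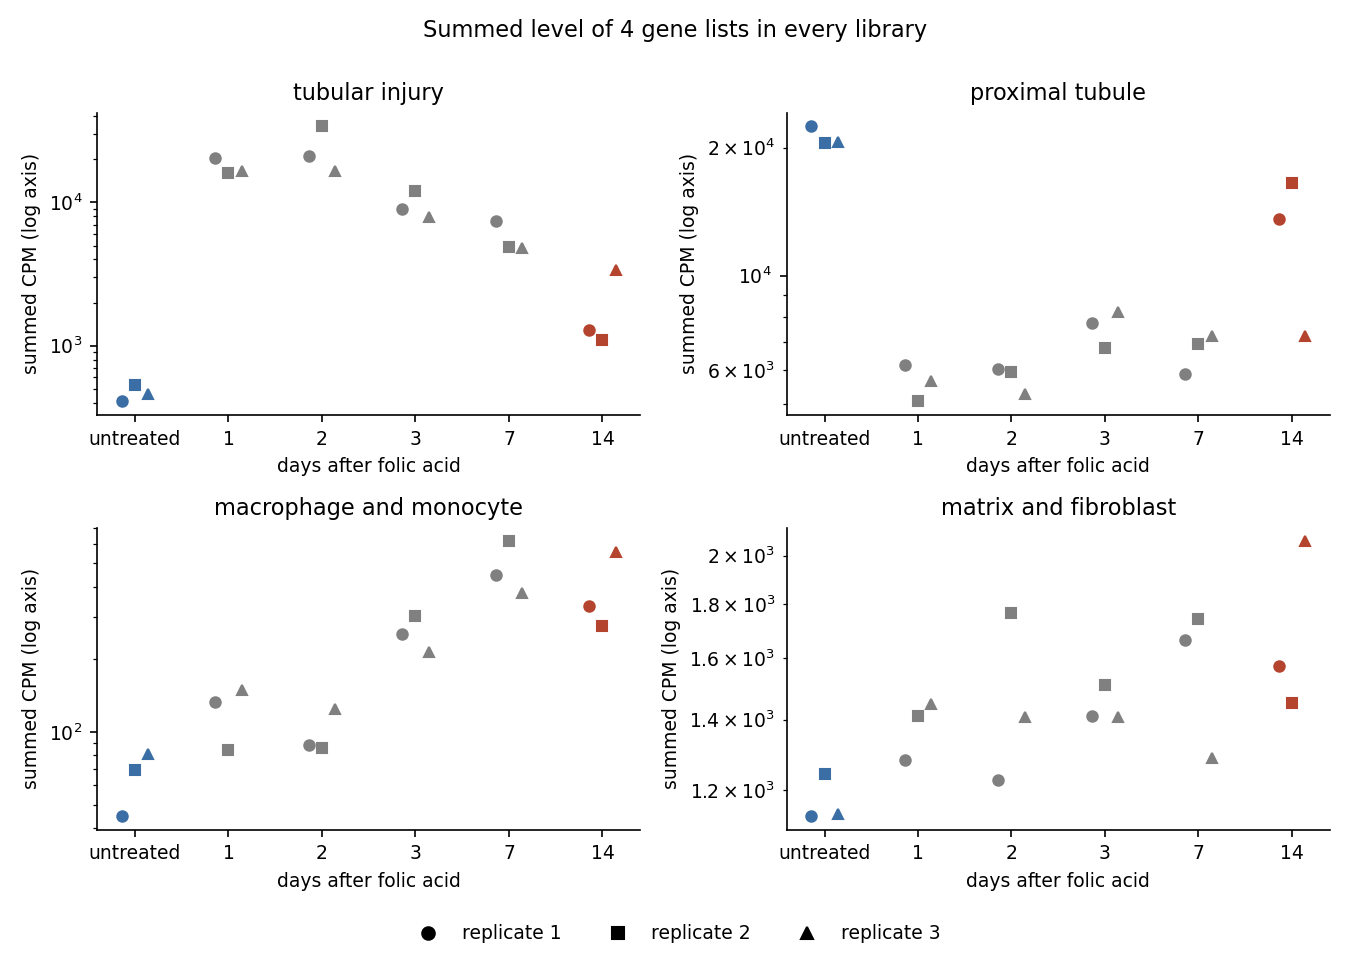
Summed CPM (log axes) of 4 gene lists in each of the 18 libraries, by days after folic acid (horizontal axis), with untreated in blue, day 14 in red and other times in grey; symbols mark the replicate number. At day 14 the injury list lies between untreated and day 7 kidney, and day 14 replicate 3 is the day 14 library nearest to day 7 in the proximal tubule and injury panels.

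Macrophage and monocyte genes had the largest median change of any list. Of 35 measured members 14 rose and none fell, with a median log2 fold change of 2.71. With day 14 replicate 3 left out, 9 rose (median 2.08). Leaving out untreated replicates 1, 2 and 3 in turn, 6, 10 and 8 rose. Among all genes tested 1.24% were called higher, and 0.583% without day 14 replicate 3. Lyz2, the lysozyme of myeloid cells, was at 112, 107 and 189 CPM at day 14, against 2.12, 8.54 and 5.01 CPM in untreated kidney. Every day 14 library held at least 100 CPM (log2 fold change 4.68 ± 0.61 (SE), adjusted p = 0.000452). Itgam, the CD11b integrin chain, was at 8.93, 6.204 and 23.2 CPM at day 14, against 0.326, 0.238 and 0.501 CPM in untreated kidney (log2 fold change 5.22 ± 0.66 (SE), adjusted p = 0.00036, with 4.46 without day 14 replicate 3). Ccr2, the receptor for Ccl2 on inflammatory monocytes, was at 27.1, 21.4 and 30.9 CPM at day 14, against 1.47, 1.69 and 3.82 CPM in untreated kidney. Its 3 day 14 libraries were alike (log2 fold change 3.52 ± 0.54 (SE), adjusted p = 0.00198). Itgax, the CD11c integrin chain, was at 2.56, 0.608 and 4.57 CPM at day 14, against 0.0544, 0.0476 and 0.0626 CPM in untreated kidney (log2 fold change 5.49 ± 1.18 (SE), adjusted p = 0.0223, with 4.78 without day 14 replicate 3). Itgax was not called without day 14 replicate 3 or untreated replicates 1, 2 or 3 (adjusted p = 0.0894, 0.0993, 0.118 and 0.0828), nor in a fit on only the 6 libraries (adjusted p = 0.0507). Csf1r, the receptor for the macrophage growth factor, named after its values were seen, was at 21.9, 20.3 and 30.5 CPM at day 14, against 17.02, 20.3 and 33.8 CPM in untreated kidney, with overlapping groups (adjusted p = 0.982). The list's summed level was 333, 276 and 556 CPM at day 14, against 44.8, 69.8 and 80.7 CPM in untreated kidney.

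Markers of other leukocytes were scarce. None of 18 measured T and natural killer cell genes, 14 B and plasma cell genes or 7 neutrophil genes was called by edgeR. Of them 4, 4 and 3 had an unadjusted p under 0.05, as did 15.6% of all genes tested. DESeq2 called 2 of each list, with 1 of the T and natural killer genes lower. The median log2 fold changes of these lists were 1.02, 0.90 and 1.42, and 0.84, 0.89 and 1.63 without day 14 replicate 3. Their summed levels were 13.1, 10.8 and 16.8 CPM at day 14 against 19.1, 6.28 and 16.3 CPM in untreated kidney for the T and natural killer list, which overlapped. For the B and plasma cell list they were 29.8, 41.3 and 31.9 CPM at day 14, against 21.5, 15.1 and 19.9 CPM in untreated kidney. For the neutrophil list they were 12.7, 10.4 and 20.9 CPM at day 14, against 8.43, 6.02 and 7.77 CPM in untreated kidney. Neither of these overlapped. Of 33 T and natural killer entries 2 to 6 had no read at day 14 and 9 to 15 in untreated kidney. Of 18 neutrophil entries 4 to 9 had none at day 14 and 10 to 12 in untreated kidney. Pdpn, a membrane glycoprotein of lymphatic vessels that injured epithelium and fibroblasts can also make, was the called gene of the lymphoid and lymphatic list. It was at 3.82, 0.973 and 8.72 CPM at day 14, against 0.326, 0.333 and 0.0626 CPM in untreated kidney (log2 fold change 4.12 ± 0.73 (SE), adjusted p = 0.00532, with 3.21 without day 14 replicate 3, and adjusted p = 0.0966 in a fit on only the 6 libraries).

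Among chemokine and cytokine genes Ccl2 was the one that passed whichever library was left out. Of 31 measured members 6 rose and none fell (median log2 fold change 2.36, or 2.25 with genes without an untreated read at their lower bound), and without day 14 replicate 3 only Ccl2 passed. Without untreated replicates 1, 2 and 3 in turn 1, 2 and 5 passed. Over all genes tested 1.24% were called higher, and 0.583% without day 14 replicate 3. Ccl2, which attracts Ccr2-bearing monocytes, was at 7.76, 4.704 and 8.52 CPM at day 14, against 0.109, 0.0476 and 0.125 CPM in untreated kidney. It was near 0 in untreated kidney and passed in all 6 fits that left out 1 library (log2 fold change 6.32 ± 0.72 (SE), adjusted p = 0.000148). Cxcl1, a neutrophil attractant, was at 1.47, 1.82 and 6.07 CPM at day 14, against 0.163, 0.262 and 0 CPM in untreated kidney (log2 fold change 4.198 ± 0.81 (SE), adjusted p = 0.0104, with 3.27 without day 14 replicate 3 and 5.101 without untreated replicate 2). It fell short of the threshold without day 14 replicate 3 or untreated replicate 1 (adjusted p 0.0657 and 0.0584). Cxcl2, of the same family, had 57 reads at day 14, against 1 in untreated kidney, at 0.5204, 0.203 and 1.63 CPM at day 14, against 0, 0 and 0.0626 CPM in untreated kidney (ratio 60.3, 95% counting interval 10.4 to 2422, adjusted p = 0.0122). The test was not passed without day 14 replicate 3 or untreated replicates 1 or 2 (adjusted p 0.0721, 0.0709 and 0.103). Its ratio was 27.2 (4.27 to 1138) without day 14 replicate 3, 27.1 (4.67 to 1089) without untreated replicate 2, and at least 15.9 (floor of 3 counts) without untreated replicate 3, which held the 1 untreated read. Csf1, the macrophage growth factor, was at 6.03, 1.38 and 6.89 CPM at day 14, against 1.09, 1.09 and 0.376 CPM in untreated kidney (log2 fold change 2.44 ± 0.53 (SE), adjusted p = 0.0229). Its call was lost without day 14 replicates 1 or 3 or untreated replicates 1, 2 or 3 (adjusted p 0.0613, 0.109, 0.0729, 0.0722 and 0.0959). Cxcl1 and Csf1 did not pass in a fit on only the 6 libraries (adjusted p 0.0966 and 0.158). Of the list only Ccl2 was called there, and Cxcl2 was not among the genes tested in that fit. The macrophage list moved with this one, at 276 to 556 CPM summed over its members at day 14 and 44.8 to 80.7 CPM in untreated kidney, and its part in the result was not tested.

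Complement genes rose at several steps of the cascade. Of 25 measured members 10 rose and none fell (median log2 fold change 1.98). When day 14 replicate 3 was left out, 6 rose (median 1.67). When untreated replicates 1, 2 and 3 were left out in turn, 5, 6 and 5 rose. The share of all genes tested called higher was 1.24%, and 0.583% without day 14 replicate 3. C3 (ENSMUSG00000024164), the component on which all activation routes converge, was at 90.4, 44.1 and 347 CPM at day 14, against 3.04, 4.02 and 3.88 CPM in untreated kidney. Replicate 3 was the highest by far, and the lowest day 14 library still held many times the untreated level (log2 fold change 5.45 ± 0.59 (SE), adjusted p = 0.000118, with 4.198 without day 14 replicate 3). C3ar1, a receptor for the C3a fragment, was at 8.02, 21.9 and 37.9 CPM at day 14, against 1.14, 0.856 and 1.19 CPM in untreated kidney (log2 fold change 4.42 ± 0.63 (SE), adjusted p = 0.00095, with 3.82 without day 14 replicate 3). C7, a part of the membrane attack complex, was at 7.03, 8.68 and 7.42 CPM at day 14, against 0.598, 0.856 and 0.438 CPM in untreated kidney. Its replicates were alike (log2 fold change 3.57 ± 0.72 (SE), adjusted p = 0.0138). The gene did not pass without untreated replicates 1, 2 or 3 (adjusted p 0.077, 0.0566 and 0.0756). Cfi, a protease that inactivates C3b, was at 5.81, 1.78 and 4.85 CPM at day 14, against 0.217, 0.476 and 0.376 CPM in untreated kidney (log2 fold change 3.49 ± 0.75 (SE), adjusted p = 0.0218). The difference missed the threshold without day 14 replicates 1 or 3 or untreated replicates 1, 2 or 3 (adjusted p 0.0542, 0.0689, 0.111, 0.0802 and 0.0828). Cfi did not pass in a fit on only the 6 libraries either (adjusted p = 0.0537). The summed complement level was 500 to 949 CPM at day 14 and 146 to 182 CPM in untreated kidney. The macrophage list moved with it, at the levels given above, and its part in the result was not tested.

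The genes called in antigen presentation all belonged to the class II route, by which macrophages, dendritic cells and B cells show peptides to helper T cells. Of 20 measured members 5 rose and none fell (median log2 fold change 1.96), and the same 5 passed without day 14 replicate 3 (median 1.63). Among all genes tested 1.24% were called higher, and 0.583% without that library. H2-Ab1, a class II chain, was at 92.1, 57.5 and 99.1 CPM at day 14, against 5.76, 9.54 and 7.83 CPM in untreated kidney (log2 fold change 3.42 ± 0.45 (SE), adjusted p = 0.00048). Cd74, the invariant chain that guides class II molecules, was at 237, 239.6 and 426 CPM at day 14, against 49.1, 45.6 and 50.05 CPM in untreated kidney (log2 fold change 2.64 ± 0.41 (SE), adjusted p = 0.002). H2-DMa, which helps load peptide, was at 5.898, 3.85 and 3.67 CPM at day 14, against 0.544, 0.357 and 0.438 CPM in untreated kidney (log2 fold change 3.33 ± 0.57 (SE), adjusted p = 0.00447). H2-Ea-ps, annotated as a class II pseudogene, was at 43.5, 58.5 and 49.8 CPM at day 14, against 5.76, 7.37 and 9.33 CPM in untreated kidney (log2 fold change 2.76 ± 0.47 (SE), adjusted p = 0.00433). Reads that aligned at more than 1 place were not counted for any gene. Whether the pseudogene annotation holds in Balb/c mice was not tested. H2-Aa, the partner chain of H2-Ab1 and the last of the 5, was at 102, 116 and 195 CPM at day 14, against 17.5, 32.4 and 24.1 CPM in untreated kidney (log2 fold change 2.48 ± 0.34 (SE), adjusted p = 0.000765). Each of the 5 passed in all 6 fits that left out 1 library, and in each the day 14 libraries lay above the untreated ones. Of 30 measured interferon response genes 1 rose, Mx1, an antiviral GTPase, at 9.02, 9.29 and 1.96 CPM at day 14, against 0.381, 0.618 and 0.313 CPM in untreated kidney. Here replicate 3 was the lowest day 14 library (log2 fold change 3.901 ± 0.85 (SE), adjusted p = 0.0231). This call ended without day 14 replicate 1 or untreated replicates 1, 2 or 3 (adjusted p 0.0571, 0.11, 0.0791 and 0.0959). Nor did Mx1 pass in a fit on only the 6 libraries (adjusted p = 0.0527). Macrophage genes moved with these lists as given above, and their part in them was not tested.

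Metabolic lists were lower in level with few single genes past the threshold. The medians below are to be read beside the shift of 0.32 between scalings. Without day 14 replicate 3 the medians of the respiratory chain, fatty acid oxidation, folate and NRF2 lists were -0.34, -0.35, -0.29 and -0.41. All but 1 of 46 nuclear-coded respiratory chain genes had a negative log2 fold change (median -0.48). None was called by edgeR, while 15 had an unadjusted p under 0.05 and DESeq2 called 1 lower. The summed level was 3057, 3076 and 1947 CPM at day 14, against 3689, 3977 and 4057 CPM in untreated kidney, and replicate 3 was lowest. Of 40 fatty acid oxidation genes 1 fell (median -0.47), Crot, a peroxisomal carnitine acyltransferase, at 134, 125 and 96.4 CPM at day 14, against 262, 206 and 239 CPM in untreated kidney (log2 fold change -0.99 ± 0.23 (SE), adjusted p = 0.0304). It fell short of the threshold without day 14 replicate 3 or untreated replicates 1, 2 or 3 (adjusted p 0.148, 0.124, 0.0598 and 0.0858). Of 40 folate and one-carbon genes 1 fell (median -0.43). It was Folr1 (ENSMUSG00000001827), the folate receptor of the proximal tubule's apical membrane, at 41.4, 44.2 and 21.4 CPM at day 14, against 95.4, 95.6 and 108 CPM in untreated kidney. The groups did not overlap (log2 fold change -1.48 ± 0.27 (SE), adjusted p = 0.00779), and it passed without replicate 3 (adjusted p = 0.0405) and in the other 5 fits that left out 1 library, though not in a fit on only the 6 libraries (adjusted p = 0.0773). Of 27 NRF2 target and glutathione genes 1 fell (median -0.56), Gsr, glutathione reductase, at 23.7, 24.6 and 16.2 CPM at day 14, against 38.6, 43.8 and 46.98 CPM in untreated kidney (log2 fold change -1.01 ± 0.25 (SE), adjusted p = 0.0483), which passed in none of the 6 fits that left out 1 library (adjusted p 0.051 to 0.213). Neither Crot nor Gsr passed with library totals alone (adjusted p 0.214 and 0.165) or in a fit on only the 6 libraries (adjusted p 0.101 and 0.135). The summed proximal tubule markers moved with these lists, at 7231 to 16517 CPM at day 14 and 20469 to 22425 CPM in untreated kidney, and their part was not tested. No p53 target (22 measured) or unfolded protein and ATF4 stress gene (24 measured) was called by edgeR, while 3 of each list had an unadjusted p under 0.05 and DESeq2 called 1 of each. In all, 2626 of the 16824 genes tested had an unadjusted p under 0.05.

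The largest falls among genes of at least 10 CPM included enzymes and transporters in none of the lists. Ndrg1, a stress-responsive gene of epithelia, was at 149.7, 179 and 176 CPM at day 14, against 551, 621 and 498 CPM in untreated kidney. Its 3 day 14 libraries were alike and at about the same distance from the untreated ones (log2 fold change -1.73 ± 0.21 (SE), adjusted p = 0.000233, and adjusted p = 0.00133 without replicate 3). Nt5e, the ectoenzyme CD73 that makes adenosine, was at 31.4, 16.9 and 20.1 CPM at day 14, against 94.4, 88.1 and 77.5 CPM in untreated kidney (log2 fold change -1.93 ± 0.31 (SE), adjusted p = 0.00261). Slc16a1, a lactate and pyruvate transporter, was at 5.204, 4.298 and 2.405 CPM at day 14, against 17.3, 40.6 and 21.1 CPM in untreated kidney (log2 fold change -2.73 ± 0.48 (SE), adjusted p = 0.0053). Ddc, which makes dopamine in the proximal tubule, was at 3.296, 3.61 and 3.14 CPM at day 14, against 29.1, 8.42 and 26.7 CPM in untreated kidney. Untreated replicate 2 was nearest to the day 14 libraries (log2 fold change -2.67 ± 0.46 (SE), adjusted p = 0.00447). These 4 and Itgb6 passed in all 6 fits that left out 1 library. Ethe1, a mitochondrial sulfur dioxygenase, was at 14.8, 13.1 and 11.1 CPM at day 14, against 50.7, 52.98 and 31.4 CPM in untreated kidney (log2 fold change -1.79 ± 0.34 (SE), adjusted p = 0.00939). The test was not passed without day 14 replicate 3 or untreated replicate 2 (adjusted p 0.063 and 0.0537). Coa3, a cytochrome c oxidase assembly factor, was at 3.95, 5.11 and 4.402 CPM at day 14, against 9.68, 20.6 and 11.7 CPM in untreated kidney (log2 fold change -1.64 ± 0.36 (SE), adjusted p = 0.0229). Its call was lost without day 14 replicates 1 or 3 or untreated replicate 2 (adjusted p 0.075, 0.0985 and 0.147). Lactb, a mitochondrial serine protease homologue, was at 10.5, 6.93 and 4.57 CPM at day 14, against 21.1, 35.1 and 20.6 CPM in untreated kidney (log2 fold change -1.802 ± 0.42 (SE), adjusted p = 0.0334). The gene did not pass without day 14 replicates 2 or 3 or untreated replicates 1, 2 or 3 (adjusted p 0.0767, 0.172, 0.0653, 0.151 and 0.0516). Pnkd was at 15.8, 18.8 and 10.96 CPM at day 14, against 141, 39.4 and 26.9 CPM in untreated kidney, where 1 untreated library was far above the others (log2 fold change -2.19 ± 0.498 (SE), adjusted p = 0.0309, with -1.13 without untreated replicate 1). The difference missed the threshold without day 14 replicates 1 or 3 or untreated replicate 1 (adjusted p 0.0767, 0.158 and 0.234). Ablim3, an actin-binding protein, was at 1.08, 0.527 and 1.39 CPM at day 14, against 5.22, 30.5 and 2.57 CPM in untreated kidney, again with 1 high untreated library (log2 fold change -3.68 ± 0.76 (SE), adjusted p = 0.0172, with -1.97 without untreated replicate 2). This call ended without day 14 replicates 1, 2 or 3 or untreated replicate 2 (adjusted p 0.0529, 0.0569, 0.0618 and 0.159). Of these genes Ddc, Coa3, Lactb, Pnkd and Ablim3 did not pass in a fit on only the 6 libraries (adjusted p 0.0581, 0.102, 0.0966, 0.151 and 0.131), and Coa3, Lactb and Pnkd did not with library totals alone (adjusted p 0.0844, 0.0983 and 0.0528).

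**Figure D4:**
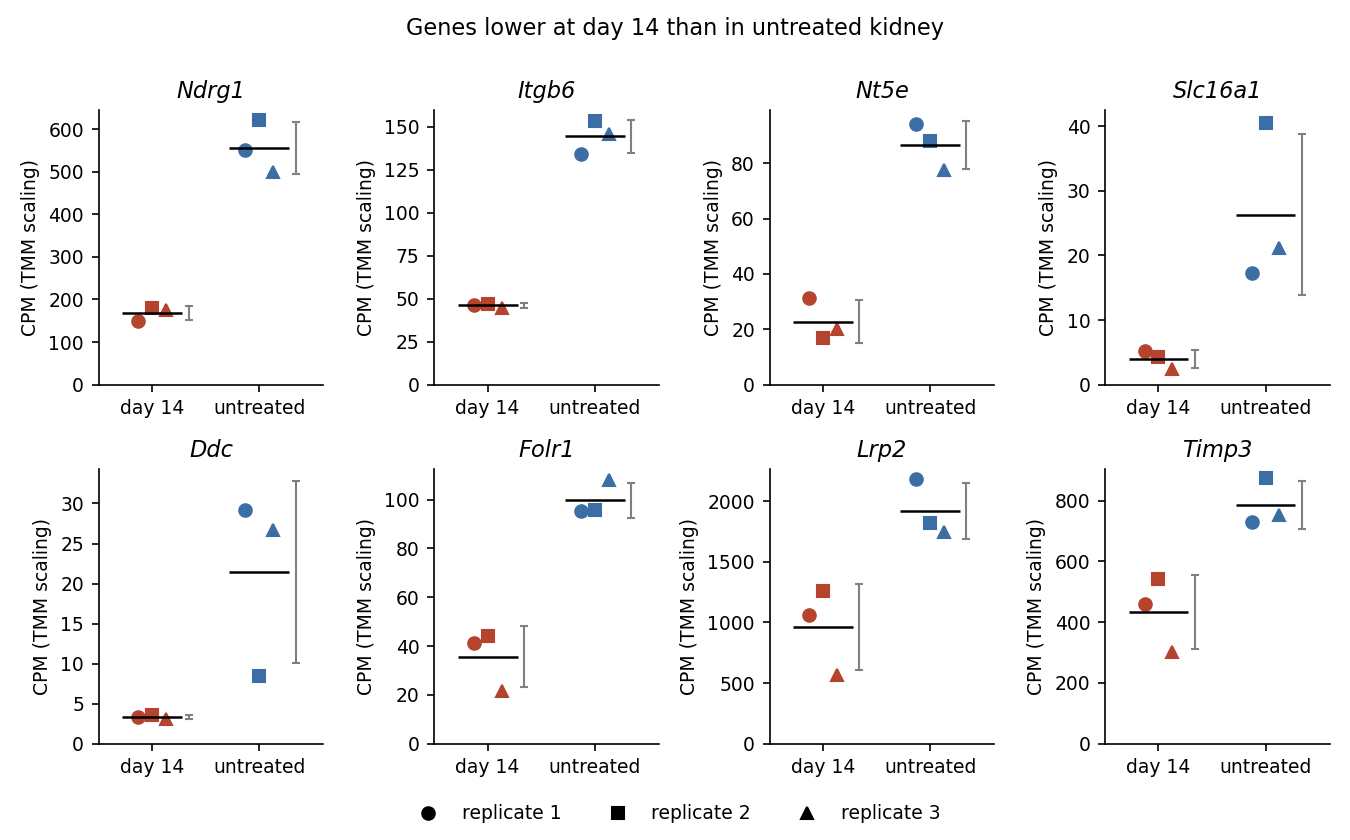
Level in CPM with TMM scaling (vertical axes, each from 0) of 8 genes lower at day 14, for the 3 day 14 libraries (red, left) and the 3 untreated libraries (blue, right); symbols mark the replicate number, the black line is the mean and the grey bar its SD. In all 8 panels every day 14 point lies below every untreated point, and for Itgb6 the day 14 libraries sit at 44.6 to 46.9 CPM, against 134 to 153 CPM in untreated kidney.

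Among immediate early genes, 3 of 24 measured rose, beside 1.24% of all genes tested. Egr2, a zinc finger transcription factor, had no read in untreated kidney and 119 reads at day 14, at 2.86, 0.365 and 1.79 CPM. That is at least 42.0-fold higher with a floor of 3 counts over the untreated group, and it passed in all 6 fits that left out 1 library. Klf6, a transcription factor, was at 23.4, 21.7 and 58.7 CPM at day 14, against 7.88, 11.1 and 8.96 CPM in untreated kidney (log2 fold change 1.89 ± 0.43 (SE), adjusted p = 0.0326, with 1.27 without day 14 replicate 3). It fell short of the threshold without day 14 replicate 3 or untreated replicates 1, 2 or 3 (adjusted p 0.211, 0.134, 0.0917 and 0.103). Ccn2, the connective tissue growth factor, was at 17.2, 38.8 and 29.9 CPM at day 14, against 11.6, 6.47 and 6.702 CPM in untreated kidney (log2 fold change 1.795 ± 0.42 (SE), adjusted p = 0.0379). The test was not passed without day 14 replicates 2 or 3 or untreated replicates 1, 2 or 3 (adjusted p 0.101, 0.109, 0.0583, 0.16 and 0.132). With only the 6 libraries fitted none of the 3 was called, with adjusted p = 0.101 for Klf6 and 0.0966 for Ccn2. Egr2 was not among the genes tested in that fit.

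For some of the largest changes, 1 library carried the difference. Replicate 3 was the highest day 14 library for 146 of the 208 genes called higher (70.2%) and the lowest for 38 of the 52 called lower (73.1%), against 37.0 and 35.0% of all genes tested. It exceeded both other day 14 libraries by more than 5 times for 11 of the genes called higher, as replicates 1 and 2 each did for 2. Fanca, a subunit of the Fanconi anaemia DNA repair complex, was at 3.82, 1.38 and 64.4 CPM at day 14, against 1.03, 0.761 and 1.002 CPM in untreated kidney. Only replicate 3 stood far above the untreated libraries (log2 fold change 4.64 ± 0.99 (SE), adjusted p = 0.0208, with 1.48 without day 14 replicate 3). Its call was lost without day 14 replicate 3 or untreated replicates 1, 2 or 3 (adjusted p 0.354, 0.094, 0.11 and 0.0835). Sdk1, a cell adhesion molecule, was at 2.34, 2.39 and 54.1 CPM at day 14, against 1.03, 0.856 and 0.814 CPM in untreated kidney in the same way (log2 fold change 4.44 ± 0.95 (SE), adjusted p = 0.0221, with 1.39 without day 14 replicate 3). The gene did not pass without day 14 replicate 3 or untreated replicates 1, 2 or 3 (adjusted p 0.358, 0.094, 0.11 and 0.094). With only the 6 libraries fitted neither of the pair passed (adjusted p 0.164 and 0.158).

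**Figure D5:**
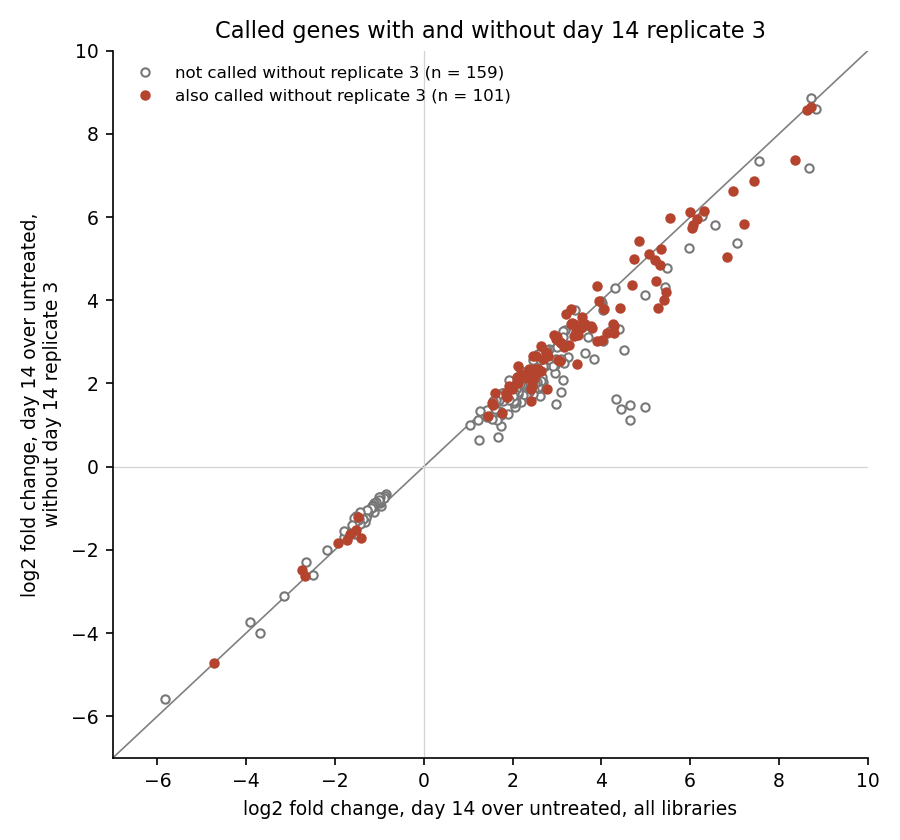
Log2 fold change (day 14 over untreated) of the 260 called genes with all libraries (horizontal axis) and without day 14 replicate 3 (vertical axis); filled points are the 101 genes also called without it, open points the 159 that were not, and the diagonal marks equal values. No point changes sign, and a small group of open points, Fanca and Sdk1 among them, lies far below the diagonal.

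Against day 7, 3 of 16824 genes differed at day 14 (0.0178%) by the same test, 1 higher (0.00594%) and 2 lower (0.0119%), while 1586 had an unadjusted p under 0.05 and DESeq2 called 147. Havcr1 was at 32.0, 25.2 and 42.6 CPM at day 14, against 148, 144 and 205 CPM at day 7. The groups were far apart (log2 fold change -2.32 ± 0.33 (SE), adjusted p = 0.0215). Plscr1, a phospholipid scramblase, was at 10.2, 7.34 and 9.05 CPM at day 14, against 32.3, 24.3 and 42.1 CPM at day 7 (log2 fold change -1.89 ± 0.29 (SE), adjusted p = 0.0269). Dnase1, an endonuclease made by tubule cells, was at 236, 279 and 106 CPM at day 14, against 28.1, 47.9 and 22.3 CPM at day 7. It was higher in each day 14 library (log2 fold change 2.66 ± 0.43 (SE), adjusted p = 0.0339). Without day 14 replicate 3 the 3 genes passed among 56, and without day 14 replicate 1 or 2 no gene passed. Without day 7 replicates 1, 2 and 3 in turn 2, 5 and 1 genes passed. Havcr1 passed in 3 and the other two genes in 2 of the 6 fits that left out 1 library. Proximal tubule genes had a median log2 fold change of 0.82 over day 7 and injury genes one of -0.79, beside 0.01 over all genes tested. No proximal tubule gene and 1 injury gene were called. The medians of the matrix, macrophage, complement and antigen presentation lists over day 7 were -0.10, -0.44, -0.29 and -0.02, with no gene called.

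Genes of the circadian clock stood out among those in no list, and the 19 described here were chosen after their values were seen, so their counts are a description. The clock's activators Arntl, Clock and Npas2 drive the Per, Cry and Rev-erb genes, whose products repress them in turn, and the PAR bZIP factors such as Dbp carry the rhythm to other genes through the D-box. Of the 19, 3 were called higher and 1 lower, beside 1.24 and 0.309% of all genes tested. For 12 of the 19 the groups did not overlap, as for 21.9% of all genes tested. Npas2 was at 0.477, 0.162 and 0.326 CPM at day 14, against 7.77, 8.703 and 9.08 CPM in untreated kidney. Every day 14 library was under 1 CPM (log2 fold change -4.71 ± 0.77 (SE), adjusted p = 0.00313). Per2 was at 28.9, 37.7 and 34.2 CPM at day 14, against 5.38, 7.68 and 6.39 CPM in untreated kidney, each group tight (log2 fold change 2.37 ± 0.37 (SE), adjusted p = 0.002). Both passed in all 6 fits that left out 1 library. Per3 was at 38.3, 23.6 and 39.6 CPM at day 14, against 9.297, 7.54 and 8.33 CPM in untreated kidney (log2 fold change 2.01 ± 0.44 (SE), adjusted p = 0.0232). The difference missed the threshold without day 14 replicates 1 or 3 or untreated replicates 1, 2 or 3 (adjusted p 0.0571, 0.0914, 0.0839, 0.112 and 0.0895). Bhlhe40, a repressor, was at 35.6, 35.97 and 53.1 CPM at day 14, against 20.3, 12.4 and 8.58 CPM in untreated kidney (log2 fold change 1.596 ± 0.31 (SE), adjusted p = 0.0117). This call ended without day 14 replicate 3 or untreated replicates 2 or 3 (adjusted p 0.0689, 0.0775 and 0.0718). Against day 7 none of the 19 was called by edgeR. There Npas2, Per2, Per3 and Bhlhe40 had log2 fold changes of -2.31, 0.63, 0.14 and -0.10 (adjusted p 0.291, 0.606, 0.969 and 0.969). Arntl was at 0.0867, 0.568 and 1.18 CPM at day 14, against 7.503, 6.82 and 8.96 CPM in untreated kidney and Dbp at 2.26, 2.11 and 1.87 CPM at day 14, against 0.598, 0.0476 and 0 CPM in untreated kidney, in the opposite sense to each other. Neither passed by edgeR (adjusted p 0.0793 and 0.119), while DESeq2 called both (adjusted p 0.00297 and 0.0179) and Dbp passed in 1 of the 6 fits that left out 1 library. Ciart, a repressor of the clock, was at 2.04, 3.61 and 0.408 CPM at day 14, against 0.272, 0.238 and 0.188 CPM in untreated kidney (edgeR adjusted p = 0.0579). It passed without day 14 replicate 3 (adjusted p = 0.0346) and with DESeq2 on all libraries (adjusted p = 0.00521). Nr1d1 was at 20.7, 24.98 and 21.3 CPM at day 14, against 26.2, 13.3 and 21.8 CPM in untreated kidney and its groups overlapped. The labels give no hour at which the mice were killed, and the part of the hour in these values was not tested.

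The promoters of Per3 and Ciart are shown because they hold the letters by which clock factors are known to bind, searched on both strands in the 250 bases before each start site (RefSeq promoters, build GRCm38.p6, given 5′ to 3′ on the gene's own minus strand, matches in capitals). The motifs were the E-box CACGTG, which reads the same on both strands, and the D-box TTATGTAA, and neither overlaps the other. Of 32851 such promoters 6.02% held the E-box and 0.819% the D-box. Per3, chr4:151044666-151044915, has D-boxes that begin 205 and 158 bases before the start site, and Ciart, chr3:95882229-95882478, has E-boxes that begin 116, 58 and 44 bases before it. A match is a description of letters, and both promoters were picked after the letters were seen. The table matched 16 of the 19 clock genes, and Per2 and Bhlhe40 were not matched. An E-box also stood in 1 of the Per1 promoters, in those of Cry1 and Bhlhe41 and in both of Tef. None of Per1, Cry1, Bhlhe41, Tef and Ciart passed by edgeR (adjusted p 0.846, 0.231, 0.0548, 0.945 and 0.0579). DESeq2 called Bhlhe41 and Ciart (adjusted p 0.00341 and 0.00521). The single Npas2 promoter in the table held neither motif.
Per3: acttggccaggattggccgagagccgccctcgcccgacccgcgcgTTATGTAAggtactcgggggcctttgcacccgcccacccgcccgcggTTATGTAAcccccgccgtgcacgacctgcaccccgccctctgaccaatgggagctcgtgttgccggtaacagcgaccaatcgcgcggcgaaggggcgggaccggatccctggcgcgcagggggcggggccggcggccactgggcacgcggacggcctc
Ciart: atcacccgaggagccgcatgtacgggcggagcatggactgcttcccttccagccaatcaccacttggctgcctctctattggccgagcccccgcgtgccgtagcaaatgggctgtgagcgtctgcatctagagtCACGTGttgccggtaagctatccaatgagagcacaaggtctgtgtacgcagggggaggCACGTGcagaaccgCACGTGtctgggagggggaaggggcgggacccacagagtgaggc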

How the data were processed

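Total RNA of frozen whole kidney was extracted with TRIzol and 10 ng per sample was amplified with NuGEN SPIA reagents, per the labels' protocols. Per the submitters' processing notes the tools were cutadapt, TopHat2 2.07, HTSeq and DESeq, with build NCBIM37. The authors deposited raw counts of reads per gene for 37991 identifiers. The 5 tally lines of unassigned reads were left out (37.4 to 48.6% of all reads at day 14 and 34.5 to 41.2% in untreated kidney). Whether counting used strand is not given in the sources used here, which makes genes with an overlapping antisense neighbour uncertain. The deposited normalized values were not used. Symbols came from GENCODE M21 for 32919 identifiers, and 5072 had none.

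All 18 libraries entered 1 edgeR 4.0.16 fit (quasi-likelihood F test, TMM, filterByExpr over the 6 groups, group as the only term), with Benjamini-Hochberg adjustment over 16824 genes and calls at adjusted p under 0.05. Tests are two-sided. The SE is the log2 fold change divided by the square root of F. Floors (3 counts over the group) and 95% intervals of ratios cover counting error only, and PCR copies are not independent molecules. Named genes were the 10 largest changes in each direction (an official symbol, 10 CPM or more on average in the higher group, groups that do not overlap), up to 4 called members of each list and any called member against the rest, and a panel of 16. The 28 lists have 864 entries; 853 were found and 11 not. The members and lists were chosen with earlier results of these data known. Some genes that the rule picked are not reported here. Genes named outside the rule are said to be so, and Csf1r, Clu, Cp, Timp2, H2-Aa, the serpins and the clock genes are among them.

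Alternatives changed the scaling, the filter, the tool (DESeq2 1.42.0), the libraries fitted or a replicate-number block, or left out each library in turn. The clock list, the fit without day 14 replicate 3 on the genes of the main filter and the ratios of read numbers without 1 library were added after seeing the data. The fits that leave out a library apply the filter and scaling anew, and the 2 libraries left in its group are assumed to vary like the other groups. The scripts were tested on simulated counts. Within a group no 2 libraries agreed within sampling noise (chi-square per degree of freedom 42.2 to 115). R 4.3.3, limma 3.58.1, Python 3.11.15, pandas 2.3.3 and matplotlib 3.10.9 were used.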

Additional observations from a re-analysis of the deposited data

Results flagged for a closer look

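The contrast of day 14 with day 7 was the result that met a condition for a closer look, because 3 genes differed between the 2 times when the difference itself was tested in the fit on 18 libraries. Dnase1 averaged 207 CPM at day 14 and 32.8 CPM at day 7. Havcr1 averaged 33.3 CPM at day 14 and 165.6 CPM at day 7, and Plscr1 averaged 8.87 CPM at day 14 and 32.9 CPM at day 7. In untreated kidney Havcr1 averaged 16.4 CPM. No group has 4 or more libraries, so single libraries were not tested as outliers.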

How the results depend on the processing

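The genes changed at day 14 against untreated numbered 260 as reported and 435 with library totals alone (417 higher, 18 lower). They numbered 480 without a low-count filter (369 higher, 111 lower) and 71 in a fit on the 6 libraries alone (63 higher, 8 lower). DESeq2 called 922 of the 16283 genes that it tested itself (626 higher, 296 lower, 257 of the 260 among them). Leaving out 1 library gave 106 to 351, and leaving out day 14 replicate 3 with the genes of the full filter gave 115. Genes called higher in the matrix, tubular injury, macrophage and complement lists numbered 29, 18, 24 and 12 with DESeq2 and 10, 8, 6 and 6 in the fit on the 6 libraries alone. Upper quartile scaling, DESeq2 size factors in edgeR and leaving out the mitochondrial genes gave 274, 264 and 264. The genes changed at day 14 against day 7 numbered 3, with 32 without a filter, 0 in a fit on the 2 groups alone, 147 with DESeq2, 0 to 56 when 1 library was left out and 56 without day 14 replicate 3 with the genes of the full filter. Replicate numbers were shared between groups but did not pair the libraries: same-numbered libraries of day 14 and untreated kidney deviated from their group means with r of 0.00885, -0.0081 and 0.0416, and not every library correlated best with its own number. A replicate block gave 193 genes against untreated (157 higher, 36 lower) and 1 gene against day 7. Of 912 alternative values of the named genes, 744 kept direction and call, 164 lost the call, 2 gained it and 2 changed sign: Umod, never called, was at -0.04 without untreated replicate 1 and -0.14 without day 14 replicate 1, and reached 0.19 without day 14 replicate 2. The causes were not tested. With 22.2 to 47.3 M gene reads per library, mostly mitochondrial, genes with few reads rest on counts such as the 98 reads of Mmp7 at day 14 against 1 in untreated kidney.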

Other observations

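Serpins, a family of mostly secreted protease inhibitors, were called higher 7 times among 27 measured and never lower, beside 1.24% of all genes tested called higher. Of the 7, 5 were also called without day 14 replicate 3, beside 0.583% of all genes tested in that fit, and the family was picked after its values were seen. Serpina10, an inhibitor of clotting factor Xa, was at 2.82, 5.56 and 7.09 CPM at day 14, against 0.0544, 0.119 and 0 CPM in untreated kidney (log2 fold change 6.05 ± 0.59 (SE), adjusted p = 3.86e-05, with 7.27 without untreated replicate 2), and it passed in all 6 fits that left out 1 library. Serpine2, an inhibitor of thrombin and plasminogen activators, was at 9.19, 4.704 and 26.9 CPM at day 14, against 0.544, 1.05 and 0.877 CPM in untreated kidney (log2 fold change 4.02 ± 0.67 (SE), adjusted p = 0.00388, with 3.05 without day 14 replicate 3). Serpina3n, an acute-phase inhibitor, had 255 reads at day 14, against 2 in untreated kidney, at 1.52, 0.487 and 8.48 CPM at day 14, against 0, 0.0238 and 0.0626 CPM in untreated kidney (ratio 135, 95% counting interval 36.9 to 1119, adjusted p = 0.0053). Its ratio was 37.6 (9.85 to 320) without day 14 replicate 3 and 213 (37.9 to 8459) without untreated replicate 3, and it did not pass without untreated replicate 2 (adjusted p = 0.0539).

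Genes in none of the lists that were picked after their values were seen, each of which passed in all 6 fits that left out 1 library, included secreted and signalling proteins. Mgp, an inhibitor of calcification, was at 41.1, 27.5 and 63.8 CPM at day 14, against 4.62, 3.78 and 5.26 CPM in untreated kidney (log2 fold change 3.28 ± 0.48 (SE), adjusted p = 0.00112). Spon1, a matrix protein, was at 58.1, 39.6 and 102 CPM at day 14, against 5.76, 11.3 and 7.45 CPM in untreated kidney (log2 fold change 3.02 ± 0.47 (SE), adjusted p = 0.00198). Il1rn, the natural antagonist of the interleukin 1 receptor, was at 3.12, 4.14 and 3.34 CPM at day 14, against 0.0544, 0.0476 and 0.251 CPM in untreated kidney (log2 fold change 5.07 ± 0.75 (SE), adjusted p = 0.00141, with 6.02 without untreated replicate 3). Dock10, a guanine nucleotide exchange factor of leukocytes, was at 23.9, 30.6 and 34.4 CPM at day 14, against 2.88, 3.38 and 4.13 CPM in untreated kidney (log2 fold change 3.098 ± 0.36 (SE), adjusted p = 0.000176). Fcrls, an Fc receptor-like gene, had 130 reads at day 14 and none in untreated kidney, at least 45.8-fold higher if the untreated group is set to a floor of 3 counts.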
